A study of Arabidopsis thaliana with 45 samples.

Results

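The alpha-expansins described here are 10 genes of Arabidopsis thaliana: EXPA1 (AT1G69530), EXPA2 (AT5G05290), EXPA3 (AT2G37640, listed as EXP3 in RefSeq), EXPA4 (AT2G39700), EXPA5 (AT3G29030), EXPA6 (AT2G28950), EXPA8 (AT2G40610), EXPA9 (AT5G02260), EXPA10 (AT1G26770) and EXPA15 (AT2G03090). They were chosen by locus, as the probe sets whose identifier is a listed locus once its array ending is removed. All 10 were found among the 27827 probe sets of the table, with 1 probe set per gene. The study measured gene expression in imbibed seeds on 45 arrays, to compare transcripts, and transcripts bound to ribosomes, between non-dormant and dormant seeds. All seeds, those of the dormant and water-treated groups included, were of the genotype NILDOG1-Cvi with Landsberg erecta as genetic background, a near-isogenic line named for DOG1, a gene that sets the depth of seed dormancy. The 16 groups are every combination of non-dormant with dormant seeds, 24 h with 6 h of imbibition, cordycepin with water, and polysomal with total RNA. Cordycepin is an inhibitor of transcription, and polysomal RNA is the RNA recovered with polysomes, the messengers that carry ribosomes. Each group holds 3 arrays, except 3 groups of polysomal RNA at 24 h that hold 2: non-dormant seeds in cordycepin, dormant seeds in cordycepin and dormant seeds in water. A replicate is the seed of a bulk of 8 plants, and the sources used here do not give how seeds were made non-dormant.

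Expansins are small wall proteins that let plant cell walls yield to turgor at acid pH, without cutting the wall polymers. Alpha-expansins act where cellulose meets xyloglucan, and their genes are typically switched on in tissues that elongate or soften. In a germinating Arabidopsis seed such tissues are the embryo axis, which elongates, and the endosperm over the radicle tip, which weakens before the radicle emerges, and gibberellin is known to raise the expression of several of these genes while abscisic acid lowers it.

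The values are log2 expression levels after RMA, so a difference of 1 is a doubling, and differences are relative to the other transcripts on the same arrays. Array medians lay between 3.86 and 4.32, the lower quartile of an array between 2.24 and 2.92, and each array correlated with its group mates at a median r of 0.960 to 0.985. All 5 storage and oil body genes used to check the tissue were high in every group, CRA1 for example at group means of 10.21 to 12.44. Levels of the alpha-expansins are compared within a probe set and never between probe sets, and whether a probe set also detects other expansins was not tested. The sums given for tissue markers add levels over several probe sets and are descriptions only. In seed bulks, fewer cells of a type and less RNA per cell cannot be told apart.

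Of the 10 alpha-expansins, 7 were high in non-dormant seeds after 24 h and lower in every dormant group. EXPA10 was already high in non-dormant seeds at 6 h. EXPA2 had by far its highest levels in the 4 groups of non-dormant seeds at 24 h. EXPA5 and EXPA6 passed the test in no comparison of non-dormant with dormant seeds, and EXPA4 passed it in 1. The plot of levels on each array shows these patterns gene by gene.

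**Figure D1:**
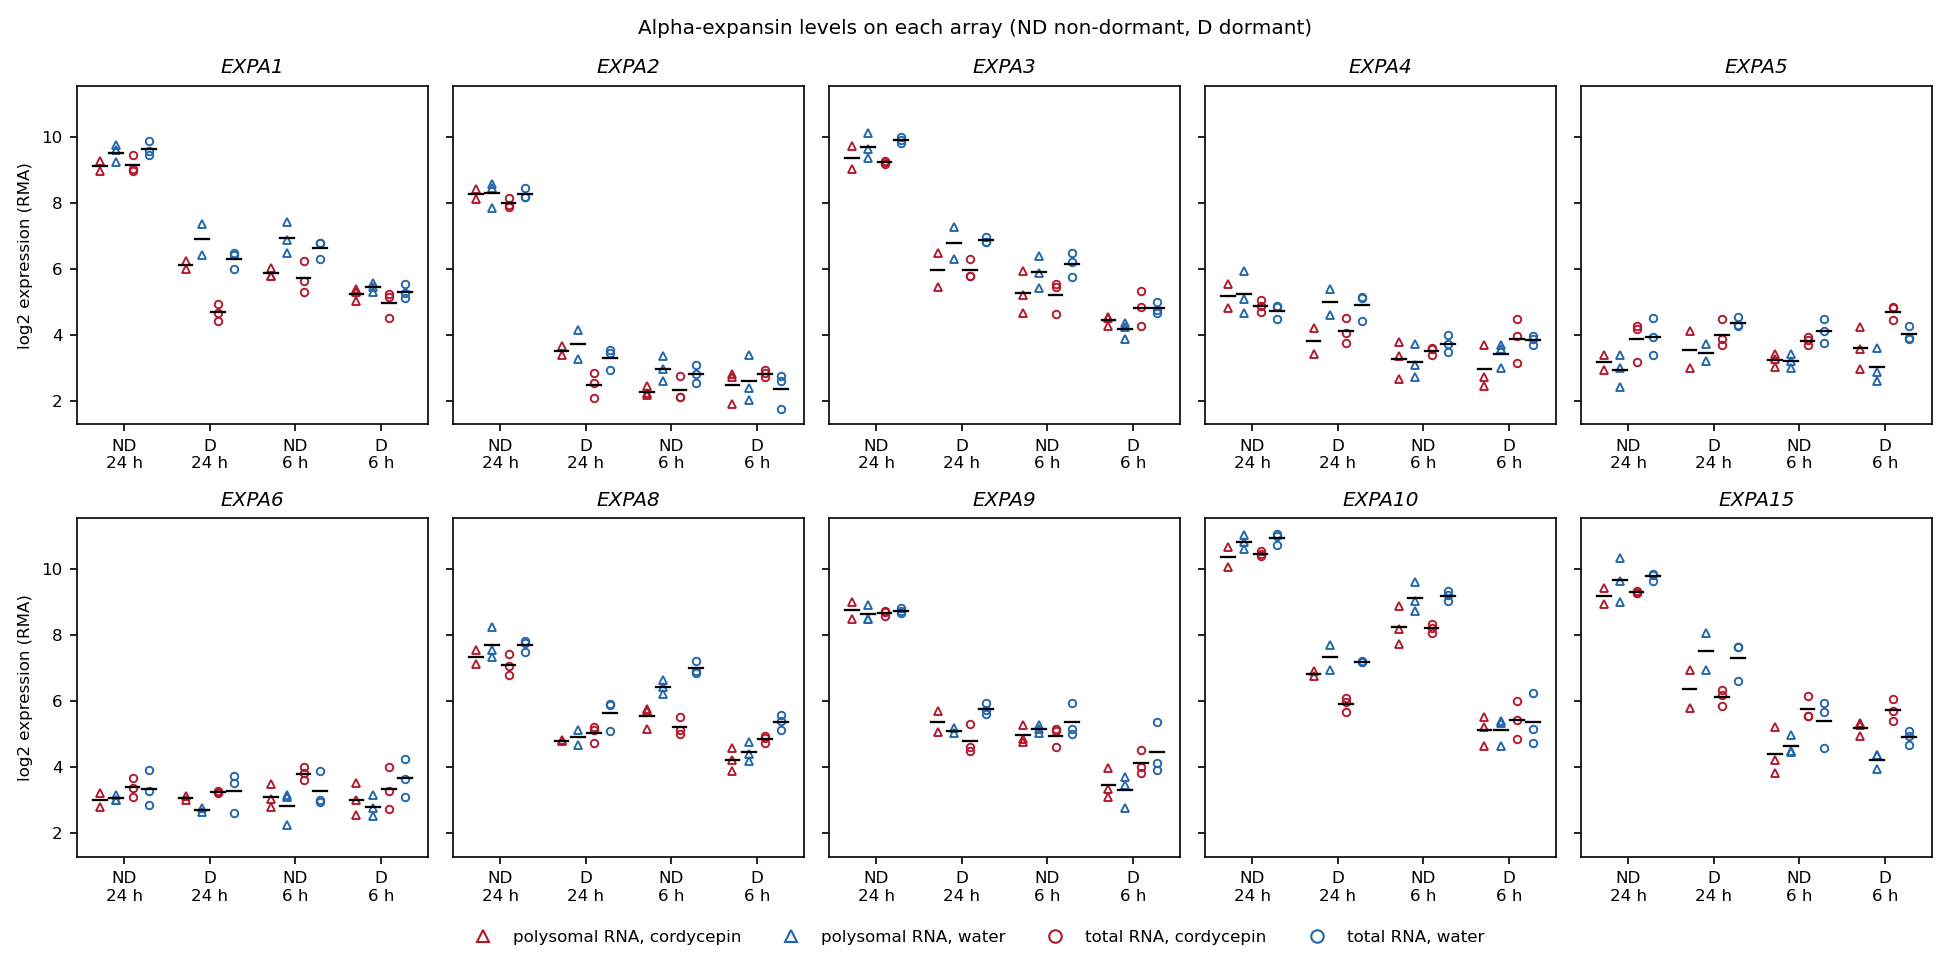
Log2 expression of each alpha-expansin on each of the 45 arrays. Columns are non-dormant (ND) and dormant (D) seeds at 24 h and 6 h, triangles are polysomal and circles total RNA, red is cordycepin and blue water, and black bars are group means. For EXPA2 the 11 arrays of non-dormant seeds at 24 h lie between 7.86 and 8.58 and the other 34 between 1.75 and 4.15.

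EXPA2 is known from Arabidopsis as an expansin of the endosperm of germinating seeds, where it takes part in endosperm expansion. In total RNA of seeds kept 24 h in water it stood at 8.17, 8.45 and 8.17 in non-dormant seeds, against 2.94, 3.54 and 3.43 in dormant seeds. The groups lay far apart, and the difference was 4.96 ± 0.30 (SE), or 31.2-fold (limma adjusted p = 1.16e-15). It held rank 9 among the 27827 differences, counted from the highest. In polysomal RNA the values were 8.47, 8.58 and 7.86 in non-dormant seeds against 3.25 and 4.15 in dormant seeds, a difference of 4.60 ± 0.34 (limma adjusted p = 3.35e-13). At 6 h in water the total RNA values were 2.52, 3.09 and 2.80 in non-dormant seeds and 1.75, 2.75 and 2.60 in dormant seeds. These groups overlap, and the difference of 0.44 ± 0.30 did not pass the test (limma adjusted p = 0.459).

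Over both treatments and RNA types, EXPA2 had a median of 8.17 on the 11 arrays of non-dormant seeds at 24 h (lowest 7.86, highest 8.58). The 10 arrays of dormant seeds at 24 h had a median of 3.32 (2.07 to 4.15), the 12 of non-dormant seeds at 6 h one of 2.56 (2.10 to 3.37) and the 12 of dormant seeds at 6 h one of 2.72 (1.75 to 3.37). With values below an array's lower quartile raised to that quartile, an alternative chosen after seeing the data, the difference at 24 h stayed at 4.96 in total RNA in water and was 5.24, against 5.51 as measured, in total RNA in cordycepin. Outside the non-dormant seeds at 24 h the gene was close to the lower end of the arrays: 14 of the 45 arrays had it below their own lower quartile, namely 2 of dormant seeds at 24 h, 6 of non-dormant seeds at 6 h and 6 of dormant seeds at 6 h. In the order of the 16 group means, the 4 groups of non-dormant seeds at 24 h came first, followed by a gap of 4.29. Among these 4, total RNA in cordycepin, with a mean of 7.99, was separate from total RNA in water, with a mean of 8.27, and the other neighbours overlapped. Below the gap, no neighbouring groups were separate.

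EXPA10, known for its part in leaf growth and in the base of the pedicel, separated the 2 kinds of seed earlier. In total RNA after 6 h in water it stood at 9.05, 9.21 and 9.35 in non-dormant seeds, against 4.73, 6.25 and 5.16 in dormant seeds. Every non-dormant array was higher, by 3.83 ± 0.31 on average, or 14.2-fold (limma adjusted p = 6.64e-11), the difference in rank 2 of all 27827 probe sets. After 24 h the values were 11.02, 11.08 and 10.74 in non-dormant seeds against 7.22, 7.20 and 7.17 in dormant seeds, a difference of 3.75 ± 0.31, or 13.5-fold (limma adjusted p = 4.71e-12). The difference at 24 h minus that at 6 h was -0.08 ± 0.44 and did not pass the test (limma adjusted p = 0.949).

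EXPA10 was the only one of the 10 genes that passed the test in all 8 comparisons of non-dormant with dormant seeds, with differences of 2.79 (cordycepin, total RNA, 6 h) to 4.58 (cordycepin, total RNA, 24 h). Its 8 highest group means were those of the 8 non-dormant groups. The lowest of the 23 arrays of non-dormant seeds read 7.74 and the highest of the 22 arrays of dormant seeds 7.71. In the order of its group means, 5 of 15 neighbouring pairs were separate, more than for any other alpha-expansin. One of these pairs was the lowest non-dormant group (total RNA in cordycepin at 6 h, mean 8.21) and the highest dormant one (polysomal RNA in water at 24 h, mean 7.33). The 4 non-dormant groups at 24 h had means of 10.38 to 10.95, and the arrays in cordycepin overlapped with those in water in polysomal RNA. The 4 dormant groups at 6 h, with means of 5.12 to 5.43, could not be ordered.

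EXPA1, known for a part in the movement of stomatal guard cells, was higher in non-dormant seeds at both times in water. At 24 h in total RNA it stood at 9.88, 9.59 and 9.45 in non-dormant seeds, against 5.98, 6.43 and 6.49 in dormant seeds, a difference of 3.34 ± 0.25, or 10.1-fold (limma adjusted p = 4.57e-13). At 6 h the values were 6.77, 6.79 and 6.30 in non-dormant seeds and 5.27, 5.10 and 5.53 in dormant seeds, a smaller difference of 1.32 ± 0.25 with no overlap (limma adjusted p = 0.000598). In cordycepin the difference at 6 h was 0.77 ± 0.25 in total RNA (limma adjusted p = 0.0685) and 0.62 ± 0.25 in polysomal RNA (limma adjusted p = 0.242), neither past the threshold. Its 4 highest group means, 9.11 to 9.64, belonged to non-dormant seeds at 24 h, and no other neighbouring groups in its order were separate.

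EXPA3, a target of the homeodomain factor ATHB5 in germinating seedlings, behaved like EXPA1 in water. In polysomal RNA at 24 h it stood at 9.64, 10.11 and 9.38 in non-dormant seeds, against 6.29 and 7.26 in dormant seeds (difference 2.93 ± 0.35, limma adjusted p = 3.32e-08). In total RNA at 6 h it stood at 5.75, 6.47 and 6.21 in non-dormant seeds against 4.66, 4.76 and 4.99 in dormant seeds (difference 1.34 ± 0.31, limma adjusted p = 0.00569). The groups were separate at both times. In cordycepin at 6 h the differences of 0.39 ± 0.31 in total RNA and 0.83 ± 0.31 in polysomal RNA did not pass the test (limma adjusted p = 0.565 and 0.186).

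EXPA15 passed the test at 24 h alone, while EXPA9 also passed it at 6 h in polysomal RNA, with smaller differences than at 24 h. EXPA9 stood, for total RNA in water at 24 h, at 8.82, 8.75 and 8.67 in non-dormant seeds, against 5.95, 5.61 and 5.74 in dormant seeds (difference 2.98 ± 0.30, limma adjusted p = 6.36e-10). At 6 h it passed the test in polysomal RNA, by 1.5 ± 0.30 in cordycepin (limma adjusted p = 0.0016) and 1.85 ± 0.30 in water (limma adjusted p = 6.67e-05), while the total RNA differences of 0.83 ± 0.30 in cordycepin and 0.90 ± 0.30 in water did not (limma adjusted p = 0.110 and 0.0684). In total RNA in water at 6 h the groups overlapped, with 5.0, 5.15 and 5.94 in non-dormant seeds and 4.11, 3.92 and 5.36 in dormant seeds. EXPA15, whose expression at the shoot apex has been linked to the growth of new organs, stood at 9.84, 9.87 and 9.64 in non-dormant seeds in total RNA, water, 24 h, against 6.62, 7.65 and 7.64 in dormant seeds (difference 2.48 ± 0.36, limma adjusted p = 1.24e-06). At 6 h its differences lay between -0.77 and 0.49 in the 4 settings and none passed the test (limma adjusted p of 0.358 to 0.979). For EXPA3, EXPA9 and EXPA15, as for EXPA1, the 4 groups of non-dormant seeds at 24 h came first in the order of means and were separate from the next group.

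EXPA8 was higher in non-dormant seeds at both times in water. In total RNA in water it stood at 7.83, 7.77 and 7.49 at 24 h in non-dormant seeds, against 5.89, 5.92 and 5.08 in dormant seeds (difference 2.07 ± 0.24, limma adjusted p = 2.58e-08). At 6 h it stood at 7.23, 6.86 and 6.91 in non-dormant seeds against 5.40, 5.11 and 5.59 in dormant seeds (difference 1.63 ± 0.24, limma adjusted p = 2.00e-05). The change of the difference, 0.44 ± 0.35, did not pass the test (limma adjusted p = 0.517). In cordycepin at 6 h the difference was 0.36 ± 0.24 in total RNA (limma adjusted p = 0.476) and 1.31 ± 0.24 in polysomal RNA (limma adjusted p = 0.000749), so that only the second passed. Its 6 highest group means were those of non-dormant seeds at 24 h and of non-dormant seeds in water at 6 h.

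EXPA4, an expansin known from pollen tubes, passed the test in 1 of the 8 comparisons, polysomal RNA of seeds in cordycepin at 24 h. It stood there at 4.81 and 5.55 in non-dormant seeds against 3.43 and 4.19 in dormant seeds, a difference of 1.38 ± 0.43 (limma adjusted p = 0.0253). With 2 arrays on each side the call was fragile: the difference was 0.99 without dormant replicate 1 (adjusted p = 0.268) and 1.01 without non-dormant replicate 2 (adjusted p = 0.289). It was also lost with quantile normalization (1.04, adjusted p = 0.152), median centring (adjusted p = 0.0536) and a fit of the compared arrays only (adjusted p = 0.059), and the last of these ended the calls of EXPA8 and EXPA9 in polysomal RNA in cordycepin at 6 h as well (adjusted p = 0.0727 and 0.0554). EXPA5, which has been tied to growth under brassinosteroids, ranged from 2.40 to 4.51 on the arrays of non-dormant seeds at 24 h, 2.98 to 4.54 on those of dormant seeds at 24 h, 2.97 to 4.48 on those of non-dormant seeds at 6 h and 2.60 to 4.85 on those of dormant seeds at 6 h. In total RNA in cordycepin at 6 h EXPA5 stood at 3.68 to 3.93 in non-dormant seeds and 4.45 to 4.85 in dormant seeds. These groups did not overlap, but the difference did not pass the test. Of all probe sets 11.1% were lower without overlap there. EXPA6 ranged from 2.24 to 4.26 over all 45 arrays. For EXPA4, EXPA5 and EXPA6 no neighbouring groups in the order of the 16 means were separate.

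**Figure D2:**
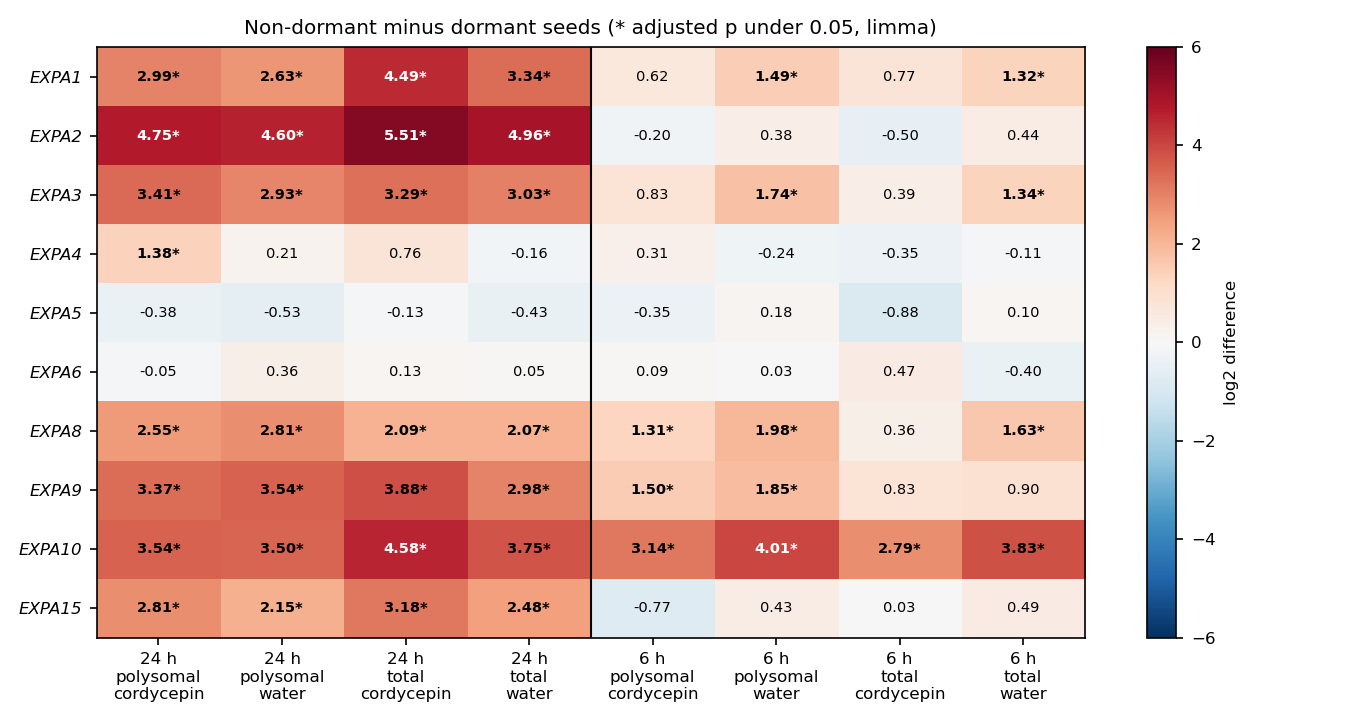
Log2 difference of non-dormant minus dormant seeds for each alpha-expansin (down the page) in 8 settings (24 h left, 6 h right), with the value printed and an asterisk where the limma adjusted p is under 0.05. EXPA10 is marked in all 8 settings, EXPA2 and EXPA15 in the 4 settings at 24 h alone, and EXPA5 and EXPA6 in none.

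Counted by comparison of non-dormant with dormant seeds, 8 of the 10 genes were higher in polysomal RNA and 7 in total RNA in cordycepin at 24 h, where 7.7% and 8.86% of all probe sets were. In water at 24 h 7 were higher in polysomal RNA and 7 in total RNA (10.3% and 11.6% of all probe sets). In cordycepin at 6 h 3 were higher in polysomal RNA and 1 in total RNA (1.37% and 2.45% of all probe sets). In water at 6 h 5 were higher in polysomal RNA and 4 in total RNA (2.3% and 3.11% of all probe sets). None of the 10 was called lower in any of these 8 comparisons. The share of alpha-expansins called higher was above that of all probe sets in each of them. Since the 10 genes were chosen with earlier results of these data known, this excess is a description and not a test. At 24 h in water the median difference of the 10 was 2.72 in polysomal RNA and 2.73 in total RNA, against -0.06 and -0.05 over all probe sets. At 6 h in water it was 0.96 in polysomal and 0.69 in total RNA, against 0.01 and -0.02.

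Between 6 h and 24 h the same 8 genes, all but EXPA5 and EXPA6, rose in non-dormant seeds in each of the 4 settings. In each setting the largest rise was that of EXPA2, 5.33 ± 0.30 to 6.00 ± 0.34 (5.24 to 5.72 with values below an array's lower quartile raised to it). EXPA15 rose by 3.56 ± 0.36 to 5.02 ± 0.36, and came after EXPA3 and EXPA9 in total RNA in cordycepin. EXPA3 rose by 3.76 to 4.10, EXPA9 by 3.39 to 3.79 and EXPA1 by 2.60 to 3.43. EXPA10, which was already high at 6 h, rose by 1.70 to 2.26. All of these passed the test with adjusted p-values of at most 2.51e-05. EXPA4 rose by 1.00 to 2.05 and EXPA8 by 0.70 to 1.89.

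The 8 of 10 genes called higher in non-dormant seeds compare with 15.1% of all probe sets in polysomal RNA and 15.8% in total RNA in cordycepin, and with 17.8% and 16.7% in water. In total RNA in water the calls of EXPA4 and EXPA8 were weak. For EXPA4 (limma adjusted p = 0.0243) the rise was 0.93, 0.95, 0.88 and 1.00 without replicate 1 or 2 at 24 h and replicate 1 or 3 at 6 h, and the adjusted p then lay between 0.0563 and 0.0952. For EXPA8 (limma adjusted p = 0.0254) it was 0.63, 0.66, 0.63 and 0.65 without replicate 1 or 2 at 24 h and replicate 2 or 3 at 6 h, with an adjusted p of 0.073 to 0.0902, and median centring ended it too (0.63, adjusted p = 0.0556).

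In dormant seeds in water, 7 genes rose between 6 h and 24 h in both RNA types, namely EXPA1, EXPA2, EXPA3, EXPA4, EXPA9, EXPA10 and EXPA15, where 7.94% of all probe sets rose in polysomal RNA and 9.61% in total RNA. EXPA15 stood at 6.62, 7.65 and 7.64 at 24 h, against 4.67, 4.95 and 5.09 at 6 h in total RNA, a rise of 2.40 ± 0.36 (limma adjusted p = 3.39e-06). EXPA3 rose by 2.07 ± 0.31 (limma adjusted p = 4.22e-06) and EXPA10 by 1.82 ± 0.31 (limma adjusted p = 2.81e-05). The 24 h and 6 h arrays of each of these 3 genes did not overlap. EXPA1 rose by 1.00 ± 0.25, EXPA9 by 1.30 ± 0.30, EXPA4 by 1.05 ± 0.35 and EXPA2 by 0.94 ± 0.30. The rise of EXPA2 was 0.52 with values below an array's lower quartile raised to that quartile. In polysomal RNA the 7 rises lay between 1.11 ± 0.34 for EXPA2 and 3.30 ± 0.40 for EXPA15.

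**Figure D3:**
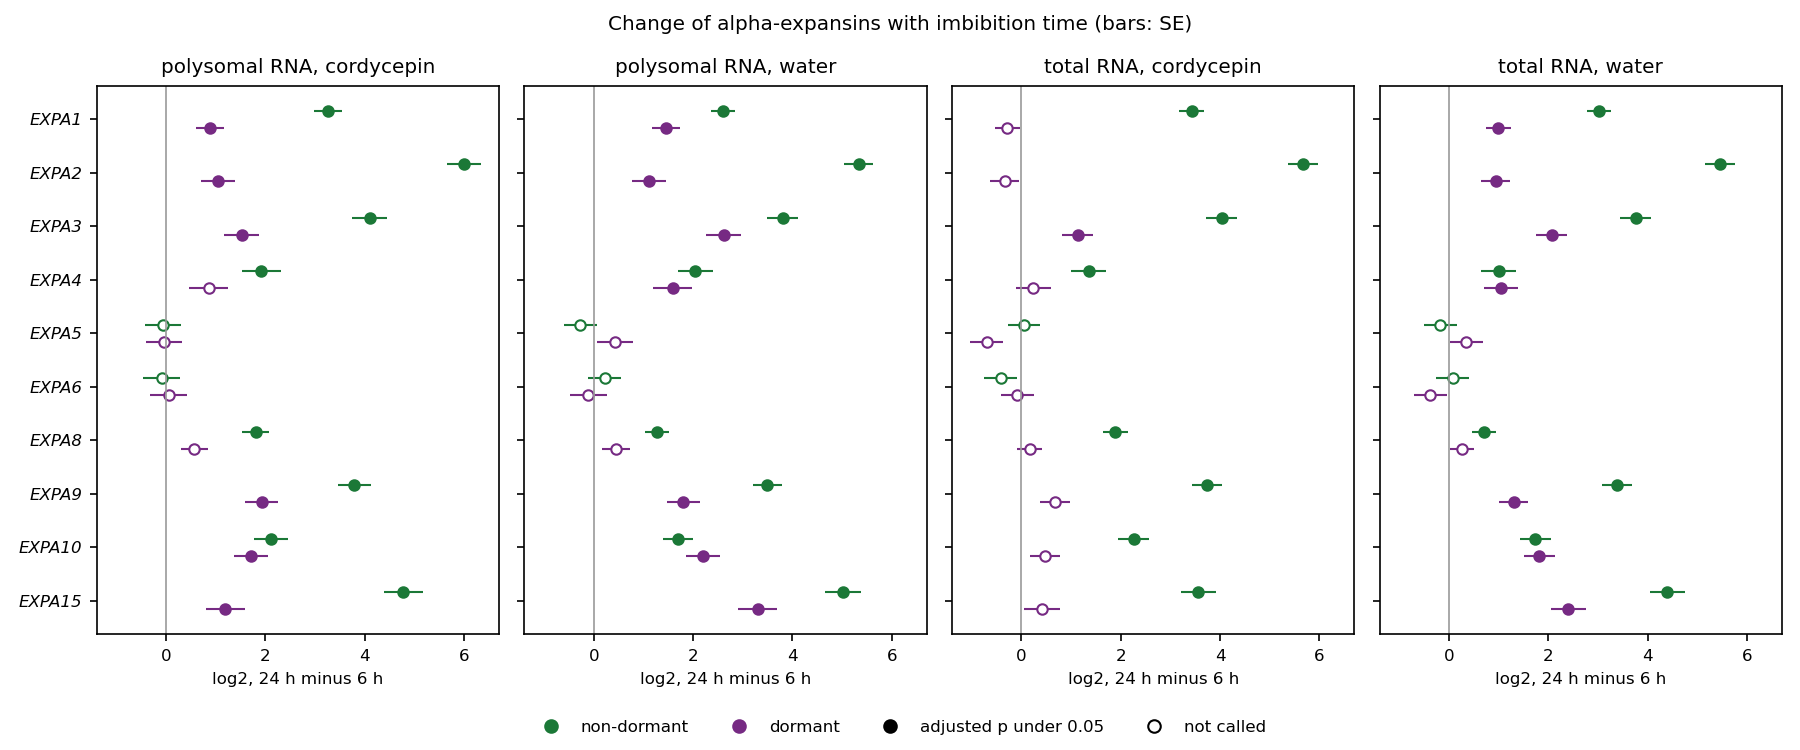
Log2 difference of 24 h minus 6 h for each alpha-expansin in the 4 combinations of RNA type and treatment, with non-dormant seeds in green above dormant seeds in purple. Bars are standard errors and filled points have a limma adjusted p under 0.05. In total RNA in cordycepin 8 genes are filled for non-dormant seeds and 1, EXPA3, for dormant seeds.

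In dormant seeds in cordycepin the time difference passed the test for 1 gene in total RNA, EXPA3 with 1.14 ± 0.31 (limma adjusted p = 0.00874), where 9.46% of all probe sets rose. The other 9 differences lay between -0.70 and 0.68. EXPA1 stood at 4.43, 4.94 and 4.65 at 24 h there, against 4.52, 5.13 and 5.23 at 6 h, and the groups overlapped. In polysomal RNA in cordycepin 6 of the 10 genes rose in dormant seeds, where 7.8% of all probe sets rose, by 0.88 ± 0.28 for EXPA1 to 1.92 ± 0.33 for EXPA9. The 24 h group there has 2 arrays.

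Several time calls in dormant seeds rested on single arrays. For EXPA4 in total RNA in water the rise was between 0.93 and 1.11 and missed the threshold without replicate 2 or 3 at 24 h or any of the 3 at 6 h (adjusted p of 0.0508 to 0.116). For EXPA2 there it was 0.82 and 0.87 without replicate 2 and 3 at 24 h and 0.63 without replicate 1 at 6 h (adjusted p = 0.106, 0.0826 and 0.198). In polysomal RNA in water replicate 2 at 24 h decided 3 calls. Without it the rise was 0.98 for EXPA1, 0.66 for EXPA2 and 1.2 for EXPA4 (adjusted p = 0.0594, 0.409 and 0.139), and EXPA2 was also lost without replicate 2 or 3 at 6 h (rises of 1.00 and 0.83). A fit of the compared arrays only ended the calls of EXPA2 and EXPA9 in total RNA (adjusted p = 0.0985 and 0.0629) and EXPA2 in polysomal RNA (adjusted p = 0.148).

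In cordycepin the call of EXPA3 in total RNA was lost without replicate 2 at 24 h (0.97, adjusted p = 0.0602) or replicate 1 at 6 h (0.87, adjusted p = 0.090). In polysomal RNA without replicate 2 at 24 h the rises were 0.77 for EXPA1, 1.18 for EXPA2, 1.02 for EXPA3 and 0.62 for EXPA15 (adjusted p = 0.225, 0.0934, 0.158 and 0.560). Without replicate 1 at 24 h they were 1.00 for EXPA1 and 0.92 for EXPA2 (adjusted p = 0.0658 and 0.194). The calls of EXPA1 without replicate 1 or 2 at 6 h (0.92 and 0.77), EXPA2 without replicate 3 (0.76) and EXPA15 without any 1 of the 3 (1.07 to 1.28) were lost too, with an adjusted p of 0.0504 to 0.183. The rises of EXPA9 and EXPA10 in polysomal RNA in cordycepin passed whichever array was left out. Median centring ended the calls of EXPA1, EXPA2 and EXPA15 in polysomal RNA in cordycepin (adjusted p of 0.0556 to 0.0615), quantile normalization those of EXPA1 and EXPA15 (0.0905 and 0.092), and a fit of the compared arrays only those 3 (0.069 to 0.0821) and EXPA3 in total RNA (0.0512).

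Whether the rise with time differed between non-dormant and dormant seeds was tested as an interaction in each setting. In cordycepin the rise was larger in non-dormant seeds for 5 of the 10 genes in polysomal RNA, EXPA1, EXPA2, EXPA3, EXPA9 and EXPA15, and for 7 in total RNA, the same 5 with EXPA8 and EXPA10 (3.09% and 3.83% of all probe sets). In water it was larger for EXPA2, EXPA9 and EXPA15 in polysomal RNA (4.17% of all probe sets) and for the first-named 5 in total RNA (5.01% of all probe sets). EXPA2 had the largest value in every setting, 4.53 ± 0.42 in total RNA in water for example (limma adjusted p = 7.63e-10). EXPA4, EXPA5 and EXPA6 passed in no setting. The interaction of EXPA10 was 1.79 ± 0.44 in total RNA in cordycepin (limma adjusted p = 0.00639), and -0.51 ± 0.46 in polysomal and -0.08 ± 0.44 in total RNA in water (limma adjusted p = 0.678 and 0.949). Whether the interactions in cordycepin and in water differ from each other was not tested.

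Cordycepin, set against water, was accompanied by few called differences among the alpha-expansins, and all 3 were lower values. EXPA8 fell in total RNA of non-dormant seeds at 6 h, where it stood at 5.0, 5.51 and 5.11 in cordycepin against 7.23, 6.86 and 6.91 in water. Every cordycepin array was lower, with a difference of -1.79 ± 0.24 (limma adjusted p = 0.000402), and 0.0827% of all probe sets passed this test. At a limma unadjusted p under 0.05 there were 4 of the 10 in that comparison, against 8.45% of all probe sets. EXPA1 and EXPA10 fell in total RNA of dormant seeds at 24 h, where 1.15% of all probe sets passed. None of the 10 differences there was positive, and their median was -0.87, against 0.01 over all probe sets. At a limma unadjusted p under 0.05 there were 8 of the 10 in that comparison, against 10.3% of all probe sets. EXPA1 stood at 4.43, 4.94 and 4.65 in cordycepin against 5.98, 6.43 and 6.49 in water (difference -1.62 ± 0.25, limma adjusted p = 0.000215). EXPA10 stood at 5.96, 5.66 and 6.08 in cordycepin against 7.22, 7.20 and 7.17 in water (difference -1.30 ± 0.31, limma adjusted p = 0.0232).

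The 3 calls were made with the spread pooled over all groups. With a spread estimated from the 6 compared arrays alone, none of them passed (adjusted p = 0.204 for EXPA8 and 0.0542 for EXPA1 and EXPA10). The standard errors were then smaller, not larger: 0.20 for EXPA8, 0.21 for EXPA1 and 0.17 for EXPA10. The call of EXPA10 was also lost whichever of its 6 arrays was left out: the difference was -1.39 to -1.18 without one of the cordycepin arrays and -1.31 to -1.29 without one of the water arrays (adjusted p of 0.0535 to 0.115). In the other comparisons of cordycepin with water no alpha-expansin passed limma's test. In non-dormant seeds 2.7% of all probe sets passed in polysomal RNA at 24 h, 3.28% in total RNA at 24 h and 0.0252% in polysomal RNA at 6 h. At an unadjusted p under 0.05 there were there 0, 2 and 4 of the 10, against 12.1%, 13.3% and 6.96% of all probe sets. In dormant seeds 0.377% passed in polysomal RNA at 24 h, 0.0108% in polysomal RNA at 6 h and 0.201% in total RNA at 6 h. At an unadjusted p under 0.05 there were 4, 1 and 3 of the 10, against 8.15%, 4.57% and 10.5% of all probe sets.

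The high levels of non-dormant seeds at 24 h were thus also measured in cordycepin. EXPA2 stood at 7.94, 7.88 and 8.15 in total RNA in cordycepin, against 8.17, 8.45 and 8.17 in water, with a difference of -0.28 ± 0.30 (limma adjusted p = 0.808). EXPA9 stood at 8.72, 8.60 and 8.71 in cordycepin and 8.82, 8.75 and 8.67 in water (difference -0.07 ± 0.30, limma adjusted p = 0.968). EXPA15 stood at 9.36, 9.28 and 9.29 in cordycepin, all below the 9.84, 9.87 and 9.64 in water, but the difference of -0.48 ± 0.36 did not pass (limma adjusted p = 0.655). In that comparison 8 of the 10 differences were negative. The sources used here do not give how far cordycepin entered the seeds.

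Whether the effect of cordycepin differed between non-dormant and dormant seeds was tested in 4 interactions, and none of the 10 genes passed limma's test in any of them. With adjustment 0.18% of all probe sets passed in polysomal RNA at 24 h, 0.295% in total RNA at 24 h, 0% in polysomal RNA at 6 h and 0.0216% in total RNA at 6 h. At an unadjusted p under 0.05 there were 0, 2, 3 and 5 of the 10 in the same order, against 5.74%, 7.49%, 2.84% and 6.18% of all probe sets. In total RNA at 6 h the largest of these, that of EXPA8, was -1.27 ± 0.35 (limma adjusted p = 0.301). In total RNA at 24 h that of EXPA1 was 1.15 ± 0.35 (limma adjusted p = 0.241). In non-dormant seeds the change of the cordycepin difference between 6 h and 24 h passed for none (0.765% of all probe sets in total RNA and 0.453% in polysomal RNA), with 1 and 0 genes at an unadjusted p under 0.05 (7.93% and 6.54% of all probe sets). The 1 was EXPA8, at 1.2 ± 0.35 (limma adjusted p = 0.120).

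**Figure D4:**
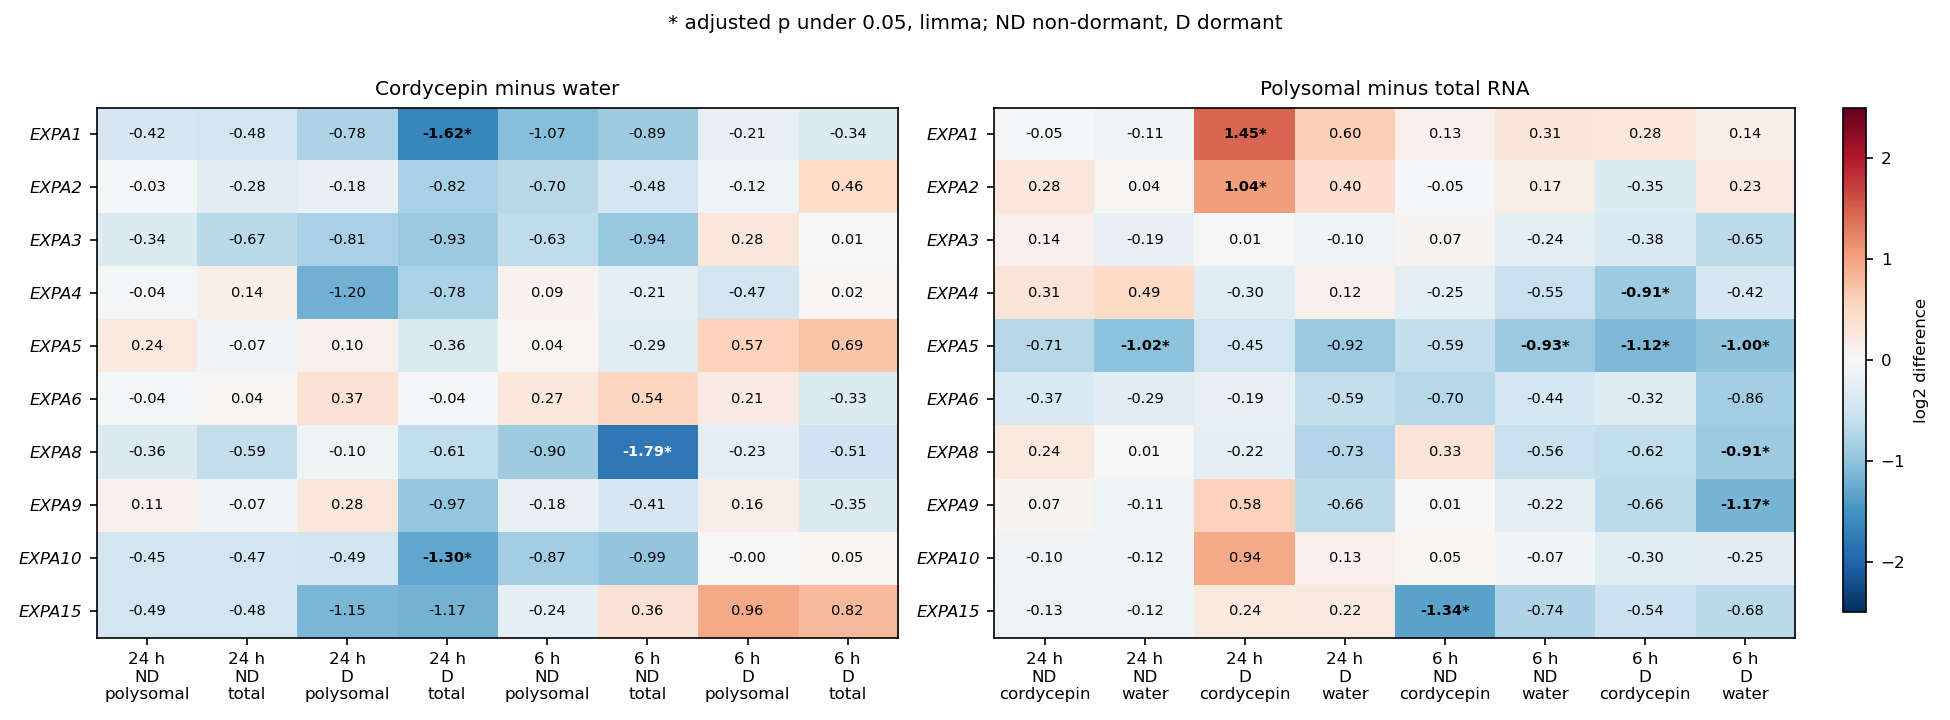
Log2 difference of cordycepin minus water (left) and of polysomal minus total RNA (right) for each alpha-expansin in 8 settings each, with asterisks where the limma adjusted p is under 0.05. On the left 3 negative values are marked, and on the right 8 negative and 2 positive ones, of which EXPA5 holds 4.

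The alpha-expansins that rose in total RNA rose in polysomal RNA too. In non-dormant seeds in water at 24 h polysomal minus total RNA was 0.04 ± 0.30 for EXPA2, -0.12 ± 0.31 for EXPA10, -0.11 ± 0.25 for EXPA1, -0.19 ± 0.31 for EXPA3, -0.11 ± 0.30 for EXPA9, -0.12 ± 0.36 for EXPA15, 0.01 ± 0.24 for EXPA8 and 0.49 ± 0.35 for EXPA4, all with a limma adjusted p of 0.368 or more. Only EXPA5 passed in that comparison, where 14.8% of all probe sets did. EXPA5 stood at 2.99, 2.40 and 3.37 in polysomal RNA against 3.94, 4.51 and 3.37 in total RNA, groups that meet at their edge, and the difference was -1.02 ± 0.33 (limma adjusted p = 0.0316). EXPA5 was also lower in polysomal RNA at 6 h in non-dormant seeds in water (-0.93 ± 0.33), dormant seeds in water (-1.0 ± 0.33) and dormant seeds in cordycepin (-1.12 ± 0.33). Its differences in the other 4 settings were -0.92 to -0.45.

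At 6 h in dormant seeds in water EXPA8 and EXPA9 were lower in polysomal RNA as well, which with EXPA5 makes 3 of 10, where 24.3% of all probe sets passed. EXPA8 stood at 4.41, 4.77 and 4.18 in polysomal RNA against 5.40, 5.11 and 5.59 in total RNA (difference -0.91 ± 0.24, limma adjusted p = 0.00602). EXPA9 stood at 3.69, 3.45 and 2.75 in polysomal RNA against 4.11, 3.92 and 5.36 in total RNA (difference -1.17 ± 0.30, limma adjusted p = 0.00412). The value of EXPA9 rests on total RNA replicate 3, without which it was -0.72 (adjusted p = 0.0963), and on the spread pooled over groups (adjusted p = 0.0892 with the compared arrays only). In non-dormant seeds in cordycepin at 6 h EXPA15 alone was lower in polysomal RNA (-1.34 ± 0.36, limma adjusted p = 0.00477, 28% of all probe sets), and without polysomal replicate 1 it was -1.04 (adjusted p = 0.0502). In dormant seeds in cordycepin at 6 h EXPA4 and EXPA5 were lower (26.6% of all probe sets), EXPA4 by -0.91 ± 0.35 with an adjusted p of 0.0494.

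In dormant seeds in cordycepin at 24 h, 2 genes were higher in polysomal RNA, where 14.2% of all probe sets passed. EXPA1 stood at 6.01 and 6.23 in polysomal RNA against 4.43, 4.94 and 4.65 in total RNA (difference 1.45 ± 0.28, limma adjusted p = 0.00047), and the call held whichever array was left out. EXPA2 stood at 3.65 and 3.39 in polysomal RNA against 2.83, 2.55 and 2.07 in total RNA (difference 1.04 ± 0.34, limma adjusted p = 0.0333). With values below an array's lower quartile raised to it, the total RNA mean was 2.75 instead of 2.48. The polysomal mean stayed at 3.52. The EXPA2 call was lost without polysomal replicate 1 or 2 (0.91 and 1.17) and without total RNA replicate 2 or 3 (1.07 and 0.83), with an adjusted p of 0.0687 to 0.186, and with the compared arrays only (adjusted p = 0.0534). In non-dormant seeds in cordycepin at 24 h and in dormant seeds in water at 24 h no alpha-expansin passed limma's test (12.2% and 16.6% of all probe sets), with 0 and 3 of the 10 at an unadjusted p under 0.05 (26.7% and 30.4% of all probe sets).

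The calls of EXPA5 were lost without several single arrays. In non-dormant seeds in water at 24 h the difference was between -1.05 and -0.73 without replicate 1 or 2 of either RNA type (adjusted p of 0.0601 to 0.203). At 6 h in the same seeds, where 24.9% of all probe sets passed, it was between -0.93 and -0.74 without polysomal replicate 1 or 2 or total RNA replicate 2 or 3 (adjusted p of 0.0729 to 0.149). In dormant seeds in water at 6 h it was between -0.93 and -0.79 without polysomal replicate 1 or 2 or total RNA replicate 1 (adjusted p of 0.075 to 0.124), and in cordycepin -0.80 without polysomal replicate 3 (adjusted p = 0.0993). The EXPA4 call in cordycepin was lost without replicate 1 or 3 of either RNA type (-0.87 to -0.60, adjusted p of 0.116 to 0.264). Quantile normalization ended 4 of these 5 calls (adjusted p of 0.112 to 0.235), all but that of EXPA5 in dormant seeds in cordycepin. Median centring ended those of EXPA5 in water at 6 h (-0.64 in non-dormant and -0.73 in dormant seeds) and of EXPA4 (-0.59), with an adjusted p of 0.0811 to 0.178. The compared arrays alone ended those of EXPA5 in water in non-dormant seeds at 24 h and in dormant seeds at 6 h (adjusted p = 0.0573 and 0.0535) and of EXPA4 (0.157). Over all 8 comparisons of polysomal with total RNA 10 of 80 tests passed, 2 higher and 8 lower, a share near or below that of all probe sets (12.2% to 28%).

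Whether the difference between non-dormant and dormant seeds in water was unlike in polysomal and total RNA was tested at both times. No alpha-expansin passed limma's test (0.00719% of all probe sets at 24 h and 0.00359% at 6 h), and at an unadjusted p under 0.05 there were 0 at 24 h and 1 at 6 h (4.02% and 5.34% of all probe sets). Across the 8 conditions measured in both RNA types, the group means of the 2 types correlated with Pearson's r of 0.944 to 0.994 for the 8 genes that rose in non-dormant seeds, 0.640 for EXPA5 and 0.185 for EXPA6. These coefficients are descriptions over 8 conditions of 1 seed line. The 8 genes were called as rising in both RNA types, so their high r follows in part from that grouping. The 16 group means of EXPA5 and EXPA6 span only 1.78 and 1.11, which leaves little for r to follow.

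Few other expansins passed the same tests. Of 26 further alpha-expansin, beta-expansin and expansin-like genes, 25 were in the table. Many of the 25 were near the low end of the arrays in every group, the lowest with group means of 1.00 to 1.62. The highest group means of EXLA1 and EXPA20 were 8.39 and 7.25. For the genes at low levels these tests can resolve little. Comparing non-dormant with dormant seeds in water at 24 h in total RNA, 0 of the 25 were called higher and 1 lower. Of all probe sets 11.6% were called higher and 8.71% lower. The median difference of the 25 was -0.10, against -0.05 over all probe sets. The lower one was EXLA1, an expansin-like gene, with -1.68 ± 0.23 at 24 h (limma adjusted p = 3.14e-07) and -1.85 ± 0.23 at 6 h (limma adjusted p = 4.80e-07). In polysomal RNA at 24 h EXLA1 and EXPA22 were lower and EXPB1 was higher (8.13% and 10.3% of all probe sets). With time, EXLA1 fell by 3.13 ± 0.23 in non-dormant seeds in water in total RNA, where 15.1% of all probe sets fell. EXPA20 rose there by 1.39 ± 0.29 and EXPB1 by 0.94 ± 0.33 (16.7% of all probe sets rose). EXLA1 thus fell with time where 8 alpha-expansins rose.

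Other enzymes that act on cell walls moved with the alpha-expansins at 24 h. Of 14 such genes, xyloglucan endotransglucosylase/hydrolases, mannanases, a xylosidase and a cellulase, in non-dormant seeds in water at 24 h 9 were higher in polysomal RNA (median 2.07) and 11 in total RNA (median 2.24), with 0 lower in both, where 10.3% and 11.6% of all probe sets were higher. The largest differences in total RNA were those of XTH31 (5.79 ± 0.29), XTH15 (4.42 ± 0.40) and XTH9 (3.71 ± 0.26). At 6 h 1 of the 14 was higher in each RNA type, XYL1 by 1.33 ± 0.30 in polysomal RNA and MAN5 by 0.70 ± 0.20 in total RNA, and the medians of the list were -0.01 and 0.09. Between 6 h and 24 h 10 of the 14 enzymes rose and 1 fell in non-dormant seeds in total RNA in water, where 16.7% of all probe sets rose.

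Of 6 genes for regulators of expansins and for gibberellin synthesis, 4 were higher in non-dormant seeds at 24 h in total RNA in water and 3 at 6 h (11.6% and 3.11% of all probe sets), and none was lower. At 24 h GA3OX1, which makes active gibberellin (2.78 ± 0.25), and GA3OX2 (2.29 ± 0.47) differed most, ahead of ATHB5 (1.29 ± 0.17). At 6 h the 3 were RGL2, a DELLA repressor of gibberellin responses (1.78 ± 0.22), GA3OX1 (1.23 ± 0.25) and ATHB5 (0.97 ± 0.17). NAC25 and NAC1L, endosperm factors known to activate EXPA2, passed in neither and were near the low end of the arrays: at 24 h NAC25 had means of 1.80 in non-dormant and 2.15 in dormant seeds, and NAC1L 2.18 and 2.40.

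Of the markers of seed tissues, the storage and oil body genes moved as a group with the same comparison at 24 h. Of 6 endosperm markers, which include NAC25 and NAC1L, 1, NCED6, was higher (1.04 ± 0.36) and 1, EPR1, lower (-1.31 ± 0.14) in non-dormant seeds in total RNA in water at 24 h. Their summed level on the linear scale was 934 to 1009 in non-dormant and 2213 to 2554 in dormant seeds, and 3 and 5 of the 6 lay below the lower quartile of their arrays. The sum was 1708 to 2030 in non-dormant and 2318 to 2783 in dormant seeds at 6 h. EPR1 carries it: the other 5 markers summed to 24.8 to 31.5 in non-dormant and 23.5 to 26.0 in dormant seeds at 24 h. Of 6 seed coat markers none passed in total RNA in water at 24 h, their sum was 38.6 to 41.5 in non-dormant and 39.4 to 42.6 in dormant seeds, and 3 and 4 of them lay below the lower quartile. All 5 storage and oil body genes were lower in non-dormant seeds at 24 h, with a median difference of -1.66 and a sum of 6841 to 8186 against 20375 to 22241 in dormant seeds, while at 6 h none passed. The part of these shifts in the alpha-expansin results was not tested.

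The 8 alpha-expansins that rose in non-dormant seeds followed each other to different degrees over the 16 group means. Pearson's r was 0.982 between EXPA3 and EXPA9, 0.951 between EXPA1 and EXPA2, 0.930 between EXPA8 and EXPA10, 0.708 between EXPA10 and EXPA15, 0.699 between EXPA8 and EXPA15, 0.576 between EXPA4 and EXPA8 and 0.541 between EXPA4 and EXPA10, and it lay between -0.326 and 0.0149 between EXPA5 and the 8 genes that rose in non-dormant seeds. These values are descriptions over 16 groups that share a seed line and a normalization. Among 10555 other probe sets with a symbol, the group means most like those of EXPA2 were those of sks5 and XTH19 (r = 0.985 each) and scpl20 (r = 0.984). Those most like EXPA10 were NAGK (0.970), ABI4 (0.967) and BEL10 (0.958), and those most like EXPA15 were DWF1 (0.988), AGP9 (0.982) and CPD (0.979). EXPA1 was most like SAG21 (0.991), FAD3 (0.982) and ACR12 (0.973), and EXPA8 most like RALFL34 (0.951), mtHsc70-1 (0.947) and SIM (0.945). EXPA3 and EXPA9 were each nearest to the other, and EXPA4 was nearest to LIN2 (0.959).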

How the data were processed

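The authors made the deposited values from biotin-labelled arrays with RMA, which corrects background, normalizes arrays and summarises probes on a log2 scale, per the submitters' processing notes. The RMA version, array type, probe set definition and genome build were not given in the sources used here, so no coordinates are given, and promoter and protein sequences were not analysed here. Where the labels contradict each other on tissue state and RNA type, the titles were followed.

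From the deposited log2 values limma 3.58.1 in R 4.3.3 estimated the 16 group means by linear model for 27827 probe sets on 45 arrays (29 residual degrees of freedom, prior 6.39), after a check on simulated data. Comparisons were 32 differences between groups and 12 interactions. Calls are Benjamini-Hochberg adjusted p-values under 0.05, adjusted over all probe sets of a comparison. Because the spread is pooled over all groups, p-values do not measure the spread of the compared bulks alone, and 2 or 3 arrays a group limit the precision. Names came from a RefSeq table of TAIR10.1, which matched 27241 probe sets. Figures were drawn with matplotlib 3.10.9.

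The 10 genes and the gene lists were chosen with earlier results of these data known. The text names the 10 genes, of each list at most the 3 called genes with the largest difference, markers by list, and for each of the 10 genes whose means span at least 2 the 3 probe sets with a symbol most like it by Pearson's r over group means. EXPA22, MAN5 and XYL1 fall under that rule, and NAC25, NAC1L and EXLA1 are list members.

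Replicate numbers recur in every group. They were taken to pair arrays only where all 3 same-numbered pairs deviated together from their group means at r over 0.1. This rule was met for 24 h against 6 h in polysomal RNA of non-dormant seeds in water (0.148 to 0.492), and pairing changed no call there. A comparison with a group of 2 arrays has 2 pairs and could not meet the rule. In polysomal RNA both pairs exceeded 0.1 in several of these, as for cordycepin against water in non-dormant seeds at 24 h (0.240 to 0.386). In others they did not, as for non-dormant against dormant seeds in water at 24 h (0.038 to 0.484). Alternatives were quantile normalization, median centring, a fit of the compared arrays only, trend and robust estimation, replicate blocks, a filter on dim probe sets and leaving out each array.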

Additional observations from a re-analysis of the deposited data

Results flagged for a closer look

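The difference between non-dormant and dormant seeds at 24 h was larger than that at 6 h in 20 tests of the interaction itself (limma, adjusted over all probe sets), which is what singles these results out. Each value below is the rise from 6 h to 24 h in non-dormant seeds minus that in dormant seeds on the log2 scale.

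In total RNA in water the interaction was 4.53 ± 0.42 (SE) for EXPA2, 2.08 ± 0.42 for EXPA9, 2.02 ± 0.35 for EXPA1, 1.99 ± 0.50 for EXPA15 and 1.69 ± 0.44 for EXPA3. In polysomal RNA in water it was 4.22 ± 0.45 for EXPA2, 1.72 ± 0.54 for EXPA15 and 1.69 ± 0.45 for EXPA9. For EXPA2, whose 6 h levels lie near the lower end of the arrays, non-dormant seeds gained 5.46 in total and 5.33 in polysomal RNA, and dormant seeds 0.94 and 1.11. With values below an array's lower quartile raised to that quartile, the interactions of EXPA2 in water were 4.89 in total and 4.44 in polysomal RNA, and those in cordycepin 5.38 and 4.87.

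In total RNA in cordycepin the interaction was 6.01 ± 0.42 for EXPA2, 3.71 ± 0.35 for EXPA1, 3.15 ± 0.50 for EXPA15, 3.05 ± 0.42 for EXPA9, 2.90 ± 0.44 for EXPA3, 1.79 ± 0.44 for EXPA10 and 1.73 ± 0.35 for EXPA8. In polysomal RNA in cordycepin it was 4.95 ± 0.47 for EXPA2, 3.58 ± 0.56 for EXPA15, 2.57 ± 0.49 for EXPA3, 2.37 ± 0.40 for EXPA1 and 1.87 ± 0.47 for EXPA9.

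Leaving out 1 array ended 3 of these calls. EXPA15 in polysomal RNA in water was lost without 7 of 11 arrays (1.16 to 1.73, adjusted p of 0.0681 to 0.313): non-dormant replicates 1 and 2 at 24 h, non-dormant replicates 1 and 3 at 6 h, dormant replicate 1 at 24 h and dormant replicates 2 and 3 at 6 h. It was also lost with median centring (1.57, adjusted p = 0.0718) and with the compared arrays only (adjusted p = 0.0739). EXPA9 in polysomal RNA was lost in water without dormant replicate 1 at 24 h (1.62) or at 6 h (1.49), and in cordycepin without non-dormant replicate 2 (1.62) or dormant replicate 1 at 24 h (1.54), with an adjusted p of 0.0501 to 0.101. Groups of 2 and 3 arrays are too small to test for single arrays that stand apart.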

How the results depend on the processing

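No call of the 128 tests that passed changed its direction under any alternative. The counts of calls for non-dormant against dormant seeds (42, with 40 to 47 under 7 alternatives), for 24 h against 6 h (53, with 46 to 54) and for interactions (20, with 19 to 24) stayed within 1.5 times. With quantile normalization the 42 hold 1 lower call, EXPA5 in cordycepin, total RNA, 6 h. For cordycepin against water the 3 calls became 1 with the compared arrays only, EXPA3 in total RNA of non-dormant seeds at 24 h, and 9, all lower, with a replicate block within RNA type. For polysomal against total RNA the 10 calls (2 higher, 8 lower) became 6 (2 and 4) with the compared arrays only and 21 (2 and 19) with a replicate block within RNA type, and the split was 5 and 5 with median centring and 2 and 5 with quantile normalization. The cause of these shifts was not tested. With median centring the lowest median difference over all probe sets was -0.42 (24 h against 6 h, non-dormant, water, polysomal RNA). In the main fit it was -0.13. The highest was 0.43 (polysomal against total RNA, non-dormant, cordycepin, 6 h), against 0.09 in the main fit. The replicate block over all arrays gave 44, 53, 4, 12 and 23 calls in the order non-dormant against dormant, 24 h against 6 h, cordycepin, polysomal and interactions. The rule for pairing held in 1 comparison, and comparisons with a group of 2 arrays could not meet it. The results with replicate blocks are therefore given as counts, not as stronger effects. The part of a deviation shared by same-numbered arrays in these counts was not tested. Leaving out 1 array gave 41 to 43, 49 to 53, 2 to 3, 8 to 12 and 18 to 22 calls in the same order. Of 128 called tests, 25 were lost without at least 1 array. The filter on dim probe sets kept 9 of the 10 genes and 17110 probe sets. Of the 312 tests that did not pass, up to 25 changed sign under another scaling and none of those was then called. The low levels of EXPA4, EXPA5 and EXPA6, and of EXPA2 outside non-dormant seeds at 24 h, limit what these arrays can resolve.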

Other observations

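In cordycepin the endosperm marker NCED6, which codes for an enzyme of abscisic acid synthesis, was higher in non-dormant than in dormant seeds at 24 h by 4.21 ± 0.44 in polysomal RNA and 3.78 ± 0.36 in total RNA, against 1.49 ± 0.40 and 1.04 ± 0.36 in water. Its group means in cordycepin at 24 h were 6.97 in polysomal and 6.06 in total RNA of non-dormant seeds. In dormant seeds they were 2.76 and 2.27, and the 2.27 lies below the lower quartile of its arrays (2.65 to 2.74). EPR1, of the same marker list, had lower values in non-dormant than in dormant seeds there. On the linear scale EPR1 stood at 666 to 671 against 1286 to 1661 in polysomal RNA. In total RNA it stood at 1139 to 1263 against 1964 to 2335. EXPA2, also known from the endosperm, differed between non-dormant and dormant seeds by 4.75 and 5.51 in cordycepin, against 4.6 and 4.96 in water. The difference of NCED6 was larger in cordycepin than in water by 2.72 ± 0.59 in polysomal RNA and 2.74 ± 0.50 in total RNA (limma interaction, adjusted p = 0.0318 and 0.00532), while no alpha-expansin passed that test.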
